A study of Ovis aries with 9 samples.

Results

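Histone genes were examined in the fetal longissimus dorsi, the long muscle of the back, of Chinese merino sheep. They were taken from the deposited expression table as the loci whose product description names histone H1, H2A, H2B, H3 or H4, with the words methyltransferase, acetyl, demethylase, kinase, transcription factor, chaperone and binding left out. This gave 60 of 22605 loci. The muscle was sampled on day 85, day 105 or day 135 of pregnancy, called D85, D105 and D135 here, and each day is represented by 3 RNA libraries. The labels give the breed, the tissue and the age for every library and name no treatment or genotype. Whether the 3 libraries of one day derive from different fetuses is not stated. The p-values therefore rest on the spread among these 9 libraries, part or all of which may be technical. Sequencers of 2 models are named for the series but not assigned to libraries, so whether they were split by day was not tested.

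Histones are the proteins around which DNA is wound. H2A, H2B, H3 and H4 form the core of the nucleosome, and H1 is the linker histone that binds where DNA enters and leaves it. Replication-dependent histones are made in bulk during S phase from clustered genes whose main transcripts end in a stem-loop rather than a poly(A) tail. Variant histones such as H3.3, H2A.Z and H1.0 come from genes that are also used outside S phase, and in muscle, where precursor cells divide and then leave the cell cycle to fuse into fibres, they are known to supply histone to chromatin that no longer replicates. The labels name an mRNA library kit without saying how mRNA was selected, so the values of replication-dependent loci cannot be read as the amount of all histone mRNA.

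By product description, 34 of the 60 loci were replication-dependent (5 H1, 9 H2A, 13 H2B, 5 H3 and 2 H4) and 20 were variants (4 H1, 6 H2A and 10 H3). The remaining 6 were kept apart. One of them is MYSM1, an enzyme that removes ubiquitin from histone H2A and is not a histone, and the others are H2B-like products outside the usual types. HINFP, the transcription factor of histone H4 genes, was the 1 locus removed by the excluded words. A locus described with a capital letter, LOC101113108 (H2A type 1), would have been the 1 addition had capitals been ignored. H2AFZ, the gene of variant H2A.Z, is named by its symbol in the table and fell outside the rule, so it is reported beside the members.

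Values were FPKM, a fragment abundance corrected for the length of the locus and the size of the library, which allows levels of different loci to be compared per length. The histone loci together made up 0.117% to 0.446% of the total FPKM of a library. Differences between days were tested on log2(FPKM + 1), which understates the change of low loci, for loci with at least 1 FPKM in at least 3 libraries. Of the 60 loci, 37 passed this filter (26 replication-dependent, 9 variant and 2 other). None of the 37 passed through a single day alone, and 2 (CENPA and LOC101116011) had no D135 library at 1 FPKM. These 2 passed the filter only through the earlier days, so their lower calls at D135 are not independent of it. Of the 23 loci that did not pass, 18 stayed under 1 FPKM in every library.

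Zeros limited these data. At 13 of the 37 tested loci (35.1%) some libraries were listed at 0 although the median of the others was 5 FPKM or more, against 3.06% of all 13086 tested loci. Such a 0 can be a failed estimate rather than an absent transcript. Histone gene copies are nearly identical, so the split of reads between copies is uncertain at every histone locus, and 6 loci join several gene names. The account below leads with the 22 tested loci that were listed at 0 in no library, 14 of them replication-dependent.

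Across the series, totals ranged from 395797 to 489270 FPKM. No counts were given, so absolute depth is unknown. Relative depth, read from the steps between low values, ran from 0.993 to 1.20 with D85 replicate 1 as the unit. The D135 libraries were the deepest, at 1.12, 1.19 and 1.20, and the other libraries reached at most 1.07. Depth thus went with the day, and its part in the differences was not tested. Of the skeletal muscle markers (7 of 9 matched, none at 0 in all libraries), 4 of 7 tested rose from D85 to D135. The background was 6.90% of all tested loci higher. With median-of-ratios scaling 6 of the 7 rose, against 13.8% of all tested loci. The summed FPKM of these markers ran from 5434 to 7438 at D85 and from 14908 to 17931 at D135. Over all tested loci the median log2 difference was -0.35 between D135 and D85, and -0.03 after median-of-ratios scaling of the libraries, so the main counts are given under both scalings.

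Of the 22 tested replication-dependent core histone loci, 13 were lower at D135 than at D85, against 39.7% of all tested loci. Between D135 and D105, 11 of the 22 were lower, against 35.0% of all tested loci. None was higher in either comparison, where 6.90% and 4.47% of all tested loci were. The H4 locus LOC101112606 was at 103, 84.8 and 96.0 FPKM in the D85 libraries, at 78.9, 51.5 and 84.0 at D105 and at 18.4, 24.1 and 22.9 at D135. Every D135 library was below every library of the earlier days, while D85 and D105 nearly met. Its mean level fell from 94.5 ± 8.99 FPKM at D85 (SD, n = 3) to 21.8 ± 3.02 at D135, a 4.34-fold lower mean and a log2 difference of -2.07 (SE 0.20, limma adjusted p = 0.000266). H4 is the core histone without a widely used variant. In whole muscle, fewer cells of a type and less RNA per cell cannot be told apart.

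Histone H3 comes in replication-dependent forms, H3.1 and H3.2, and in the variant H3.3. The H3.1 locus LOC106990414 was at 56.3, 53.7 and 57.9 FPKM at D85, at 53.4, 37.6 and 63.7 at D105 and at 7.72, 15.3 and 15.3 at D135. Again D135 lay apart from both earlier days, and D105 surrounded D85. The log2 difference was -2.10 between D135 and D85 (SE 0.27, limma adjusted p = 0.000826) and -1.96 between D135 and D105 (adjusted p = 0.00218). A second H3 locus, which joins LOC101120877 and LOC101115753, was at 79.2, 84.7 and 26.8 FPKM at D85, at 72.6, 47.3 and 75.9 at D105 and at 12.3, 17.8 and 17.0 at D135. Its D85 libraries were uneven, but the lowest of them was still above all D135 libraries. The log2 difference between D135 and D85 was -1.80 (SE 0.42, adjusted p = 0.00974).

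H2A and H2B pair as a dimer on each side of the nucleosome. The H2A type 1 locus LOC101106292 was at 66.0, 60.4 and 62.0 FPKM at D85, at 49.1, 34.3 and 55.6 at D105 and at 8.25, 14.4 and 14.7 at D135. The 3 days did not overlap at this locus. From D85 to D135 it fell by 2.28 on the log2 scale (SE 0.24, limma adjusted p = 0.000367). A joined H2A locus (LOC101120961 and LOC101123417) was at 164, 63.3 and 65.4 FPKM at D85, with replicate 1 far above the others, and at 11.7, 16.5 and 17.0 at D135. Its log2 difference of -2.49 (SE 0.36, adjusted p = 0.00133) was the most negative of the called replication-dependent loci, and its lowest D85 library was above all D135 libraries. The low H2A type 3 locus LOC101123292 was at 2.82, 2.64 and 3.25 FPKM at D85 and at 1.14, 0.980 and 0 at D135 (log2 difference -1.27, adjusted p = 0.0170). With median-of-ratios scaling this locus did not pass (adjusted p = 0.0636).

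H2B was the most numerous family. Of its 11 tested replication-dependent loci, 7 fell from D85 to D135, against 39.7% of all tested loci lower. The steadiest was the H2B type 1 locus LOC101111915, at 77.5, 74.9 and 76.7 FPKM at D85, at 70.7, 58.6 and 67.9 at D105 and at 23.9, 25.1 and 21.0 at D135. Its libraries hardly differed within D85 or D135, and the 3 days did not overlap. The log2 difference between D135 and D85 was -1.67 (SE 0.10, limma adjusted p = 9.17e-05). The H2B type 2-F locus LOC101120455 stood at 104 ± 15.0 FPKM at D85 (SD, n = 3), 78.5 ± 12.5 at D105 and 25.0 ± 2.79 at D135. It fell by 2.01 on the log2 scale from D85 (SE 0.16, adjusted p = 0.000161). The H2B type 1-M locus LOC101110974 went from 107 ± 16.6 FPKM to 29.2 ± 4.15 between the same days, and the lower H2B type 1-B locus LOC101113632 from 26.5 ± 4.84 to 5.41 ± 0.800. Both passed the test, with log2 differences of -1.84 and -2.09 (adjusted p = 0.000552 and 0.000351). The joined H2B type 1 locus led by LOC101119941 held 68.9 ± 21.5 FPKM at D85 and 67.6 ± 12.4 at D105, then 18.2 ± 3.59 at D135. Nearly all of its difference therefore lay between D105 and D135 (log2 difference -1.84, adjusted p = 0.00192).

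A pair of low H2B loci with zeros also passed the test between D135 and D85. LOC101121643 (H2B type 2-F) was at 9.65, 11.1 and 10.3 FPKM at D85 and at 0, 2.50 and 2.81 at D135, with a log2 difference of -2.25 when the 0 is kept and -1.63 when it is treated as missing. LOC101116011 (H2B type 1-B) was at 2.71, 3.3 and 2.66 FPKM at D85 and at 0.721, 0 and 0.817 at D135 (limma adjusted p = 0.0243). This locus passed the filter on low values only through D85 and D105. Its call was lost with median-of-ratios scaling (adjusted p = 0.0595) and without any single D85 library or D135 replicate 2. The one exception among loci never at 0 was the locus with the highest mean over the 9 libraries, a joined H2B type 2-E locus (LOC101106041 and LOC101102272). It was at 340.2, 27.9 and 303 FPKM at D85, at 24.2, 178 and 266 at D105 and at 51.8, 87.1 and 78.3 at D135. The days overlapped, and the difference did not pass the test (log2 -1.01, 95% interval -3.59 to 1.58, adjusted p = 0.490).

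The 3 tested replication-dependent linker histone loci never at 0 also fell from D85 to D135, where 39.7% of all tested loci were lower. The H1.3 locus LOC101109397 was at 34.5, 36.9 and 36.9 FPKM at D85, at 27.4, 27.5 and 27.0 at D105 and at 13.9, 8.15 and 10.1 at D135. Here the 3 days separated without overlap, and the D105 libraries were almost equal. The log2 difference was -1.69 between D135 and D85 (SE 0.16, limma adjusted p = 0.000273). The H1.4 locus LOC101109652 fell from 16.8 ± 3.69 FPKM to 3.15 ± 0.552 (SD, n = 3), a log2 difference of -2.09 (adjusted p = 0.000167). Its name is also among those joined in the H2B type 1 locus led by LOC101110457. RefSeq gives the symbol H1-4 to another H1.4 locus, LOC101111401, which was listed at 0 in 5 libraries. That locus did not pass (log2 difference 1.08, limma adjusted p = 0.760), and its estimate was -2.09 with zeros treated as missing. H1.1, at LOC101114146, fell from 18.0 ± 0.543 FPKM to 3.15 ± 1.28, a log2 difference of -2.24 (adjusted p = 0.000714). At D85 H1.3 was thus the highest of these H1 loci, and H1.1 and H1.4 were not separated beyond their spread on any day.

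**Figure D1:**
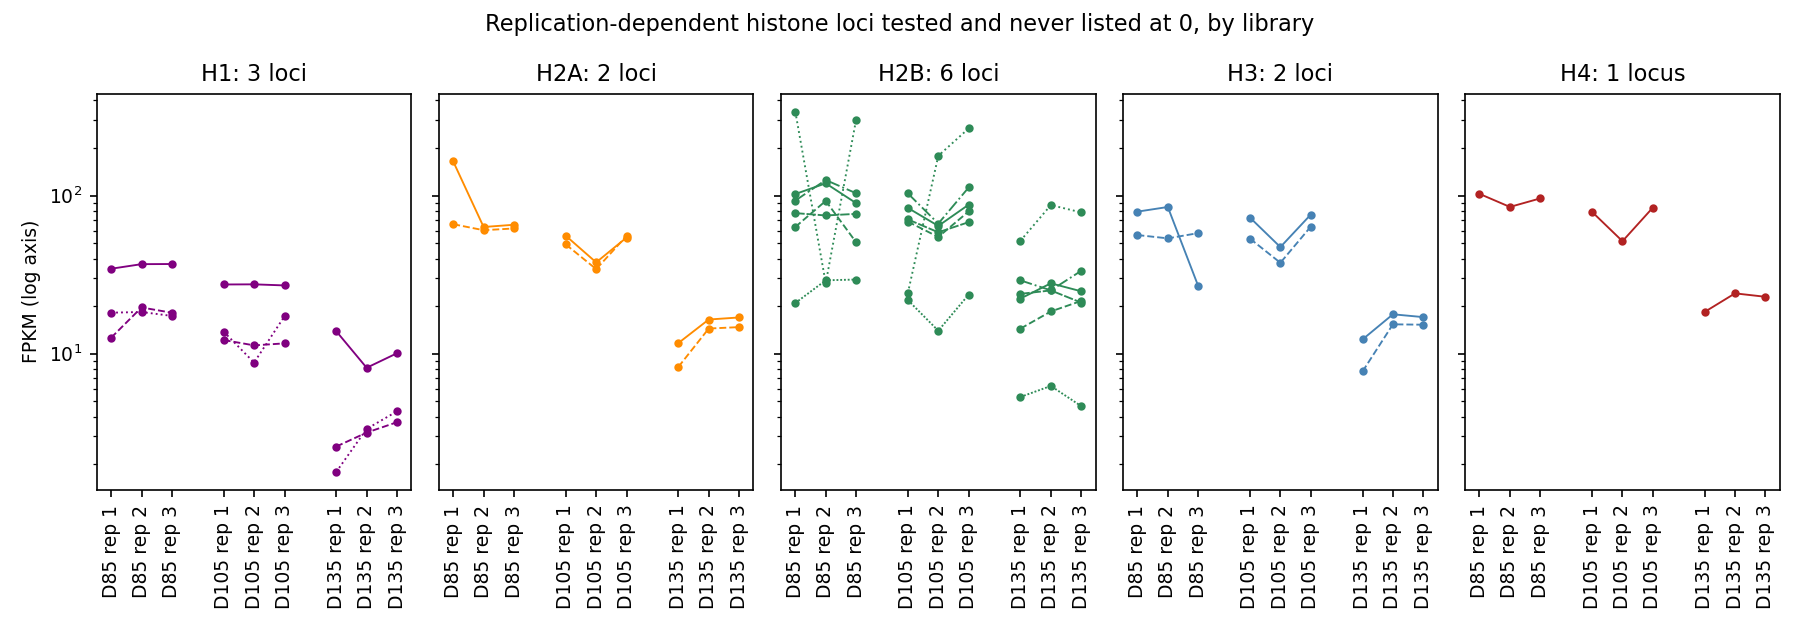
FPKM on a log axis in each of the 9 libraries for the 14 tested replication-dependent loci that were never listed at 0, in 5 panels by histone family. Each line with points is a locus, broken between days. In 13 of the 14 loci every D135 point lies below every D85 point, the exception being the joined H2B type 2-E locus whose points cross.

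Counted over the members, D135 was lower than D85 at 19 of the 37 tested histone loci (51.4%) and higher at none, with a background of 39.7% of all tested loci lower and 6.90% higher. Replication-dependent loci made up 16 of the 19 (3 H1, 3 H2A, 7 H2B, 2 H3 and the H4 locus), and the 3 others were variants. With median-of-ratios scaling 17 of the 37 were lower, against a background of 14.0% lower and 13.8% higher. The median log2 difference was -1.67 over the 37 loci and -0.35 over all tested loci. Among the 14 replication-dependent loci never at 0, 13 fell under either scaling, by log2 differences between -2.49 and -1.67 with the deposited values. In 13 of these 14 the D135 libraries lay wholly below the D85 libraries, as they did in 50.9% of all 12300 tested loci never at 0.

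Markers of other cells were read for the same comparison. Satellite cell and myoblast markers were matched for 6 of 6 genes, none at 0 in all libraries. They summed to 20.7 to 35.6 FPKM at D85, 14.8 to 33.5 at D105 and 6.49 to 9.20 at D135. Of these, 4 of 5 tested fell, against 39.7% of all loci lower, and 2 fell with median-of-ratios scaling, against 14.0%. The fifth, CHRDL2, had a log2 difference of 0.23 and did not pass, and PAX3, which was not tested, was at a mean of 0.0152 FPKM at D85 and 0.475 at D135. Endothelial markers (9 of 10 matched) ran from 167 to 199 at D85 and from 186 to 234 at D135. Of 9 tested, 4 rose, against 6.90% of all loci higher, and 7 rose with median-of-ratios scaling, against 13.8%. Leukocyte markers (9 of 10) ran from 24.7 to 52.3 and from 28.3 to 31.5, and fibroblast markers (10 of 10) from 2053 to 3215 and from 1403 to 3261. Erythroid markers (7 of 15) stayed at 2.15 to 4.21 and at 1.88 to 3.81. Tendon and cartilage markers (8 of 10) ran from 68.6 to 155 and from 50.7 to 240.2, adipocyte markers (7 of 7) from 2.93 to 17.1 and from 14.6 to 73.6, and Schwann cell and nerve markers (8 of 8) from 54.7 to 66.1 and from 53.5 to 85.7. With the deposited values, 1 of 5 tested leukocyte, 1 of 9 fibroblast and 1 of 6 tendon and cartilage markers fell. Of 5 tested adipocyte markers 1 rose, and of 6 tested Schwann cell and nerve markers 1 rose and 1 fell. The 1 tested erythroid marker did not pass. With median-of-ratios scaling 1 leukocyte, 2 fibroblast and 2 adipocyte markers rose, and no leukocyte or fibroblast marker fell. The part of these cell types in the histone values was not tested.

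Most of this difference lay after D105. Between D135 and D105, 16 of 37 histone loci were lower and none higher, where the background was 35.0% of all loci lower and 4.47% higher. With median-of-ratios scaling 13 of 37 were lower, against 8.00% of all loci lower and 9.15% higher. Over any day, 18 of 37 passed limma's F test with the deposited values, near the background of 43.2%. With median-of-ratios scaling 16 of 37 passed the F test, against 22.8% of all loci, and with quantile scaling 15 of 37, against 21.7%. The 14 replication-dependent loci never at 0 had a median log2 difference of -1.65, and 13 of them passed the test.

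Between D105 and D85 no histone locus passed the limma test, where the background was 0.0535% of all loci lower and 0.145% higher. The smallest adjusted p over the 37 loci was 0.232, for the variant H2A.V. At an unadjusted p under 0.05, 6 of 37 were lower and none higher, against 6.66% of all loci lower. The median log2 difference was -0.32 over the 37 loci and -0.02 over all loci.

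The size of this step depended on D105 replicate 2. In 12 of the 14 replication-dependent loci never at 0 it was the lowest D105 library, as it was in 35.3% of all such loci. Their level in it was, at the median, 67.1% of the mean of the other D105 libraries, against 101% for all loci. Without this library the median log2 difference of these 14 loci between D105 and D85 went from -0.41 to -0.21, and none of them was lower at an unadjusted p under 0.05, against 4 with it. In the same library the summed FPKM of fibroblast markers (10 of 10 matched) was 6746, the highest of D105, where the lowest was 2513. The tendon and cartilage markers (8 of 10 matched) stood at 425 against a lowest of 67.6, and the adipocyte markers (7 of 7) at 115 against a lowest of 6.52. The part of these markers in the histone values was not tested. Without D105 replicate 2, 18 of 37 histone loci were lower at D135 than at D105, against 28.8% of all loci. With it, 16 of 37 were lower, against 35.0% of all loci.

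**Figure D2:**
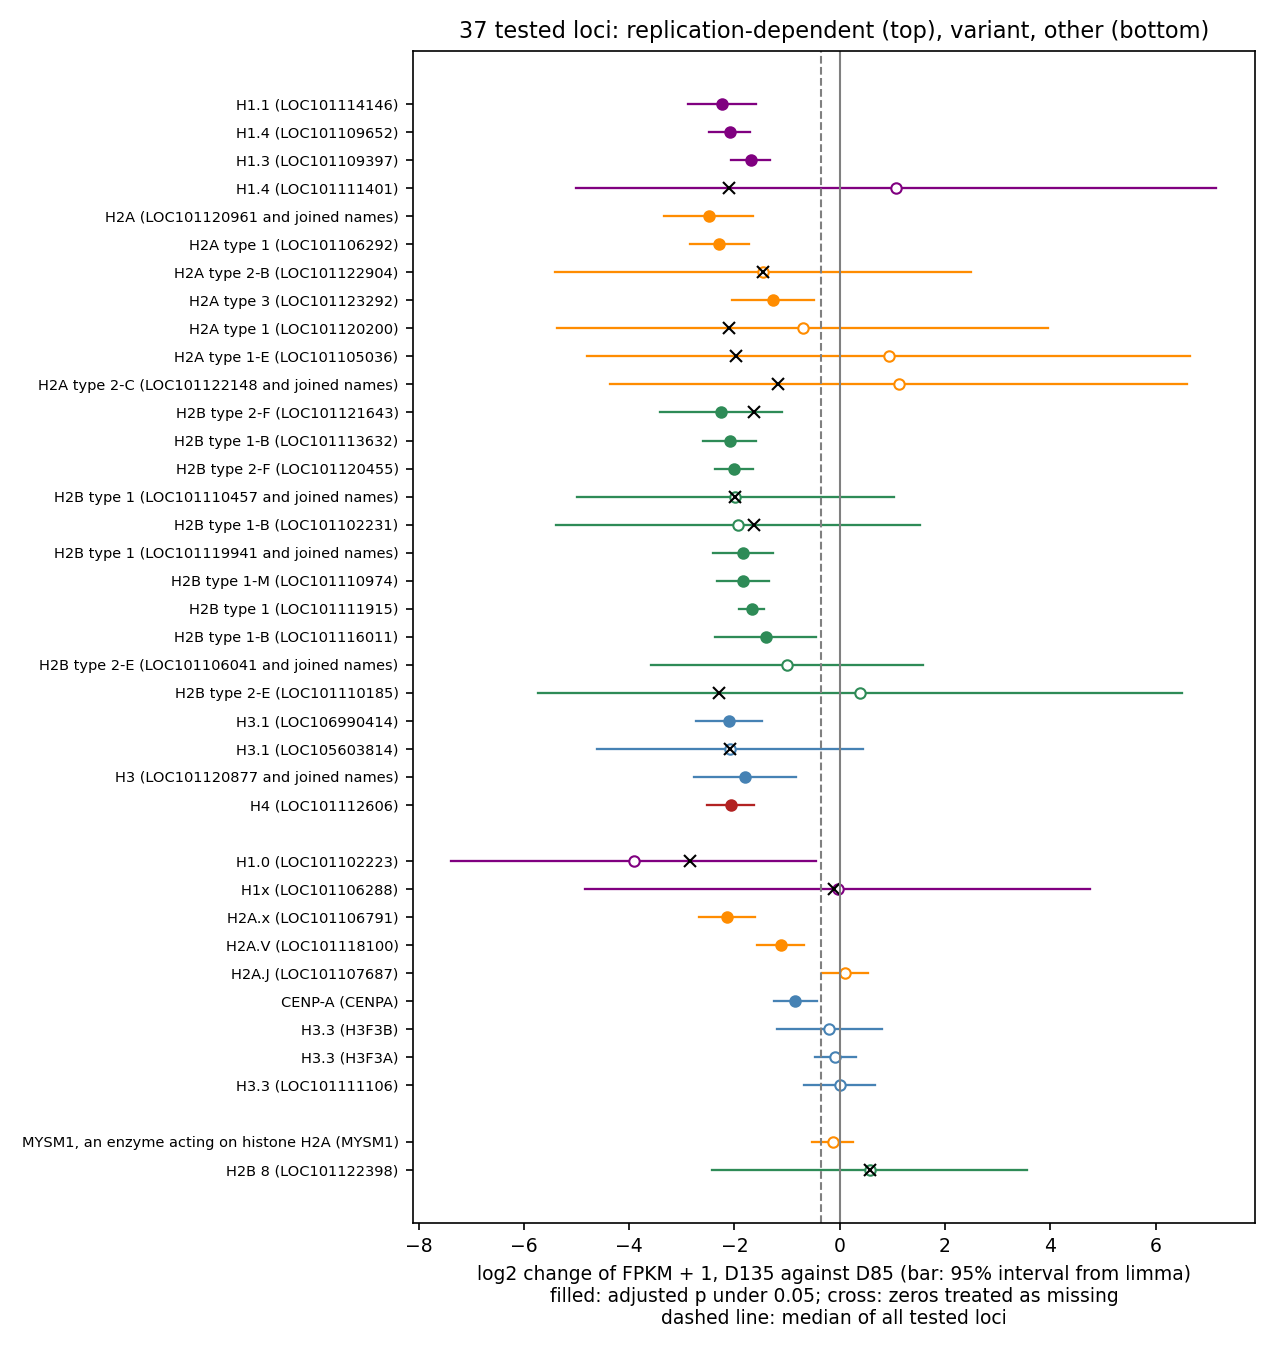
Log2 difference of FPKM + 1 between D135 and D85 for the 37 tested loci, with 95% intervals from limma, grouped into replication-dependent, variant and other loci and coloured by family. Filled circles passed the test, crosses give the estimate with zeros treated as missing, and the dashed line marks the median of all tested loci at -0.35. The 16 filled replication-dependent loci lie between -2.49 and -1.27, while 3 loci of H3.3 lie between -0.20 and 0.00.

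Of the 10 tested replication-dependent loci with doubtful zeros, 1 (LOC101121643, above) was called as deposited between D135 and D85, and 8 were with these zeros treated as missing. H2B type 2-E at LOC101110185 was at 281, 0 and 252 FPKM at D85, at 214, 0 and 240.3 at D105 and at 41.0, 61.0 and 61.1 at D135. Its non-zero libraries were higher before D135, yet the log2 difference between D135 and D85 was 0.39 with the zeros kept (limma adjusted p = 0.914) and -2.29 with them treated as missing (adjusted p = 0.000410). H2A type 1 at LOC101120200 was at 129, 0 and 0 FPKM at D85, at 113, 80.1 and 94.5 at D105 and at 0, 29.1 and 0 at D135. H1.4 at LOC101111401 was at 170.4 FPKM in D85 replicate 2 and 86.7 in D105 replicate 3, and at 36.7 and 41.8 in D135 replicates 1 and 3, with 0 in the other 5 libraries. Zeros thus fell on different libraries at different loci, and each library held between 3 and 9 of the 57 doubtful zeros.

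Most other loci of this kind had the same order among their non-zero values. H2A type 1-E at LOC101105036 was at 105 and 94.2 FPKM in D85 replicate 2 and D105 replicate 3, and at 22.4 and 30.3 in D135 replicates 1 and 2. H2B type 1 led by LOC101110457 was at 50.002, 56.4 and 92.3 FPKM at D85 and at 11.5, 17.8 and 17.9 at D135, with a 0 only in D105 replicate 3. H3.1 at LOC105603814 was at 11.0, 17.6 and 23.9 FPKM at D85 and at 2.02, 5.11 and 2.99 at D135, with a 0 only in D105 replicate 1. H2A type 2-C (LOC101122148 and LOC101122645) was at 163, 81.0 and 0 FPKM at D85, at 0, 115 and 183 at D105 and at 25.0, 74.0 and 69.4 at D135, so its non-zero values were also lower at D135. A second locus under the name LOC101122148 has no product description and was not taken by the rule. Never at 0, this second locus was at 137, 143 and 127 FPKM at D85 and at 19.1, 29.0 and 31.3 at D135. Its log2 difference was -2.34 (limma adjusted p = 0.000235). H2A type 2-B at LOC101122904 was at 33.6, 45.2 and 0.621 FPKM at D85 and at 0.276, 8.59 and 9.35 at D135, so its D85 libraries lay on both sides of D135. H2B type 1-B at LOC101102231 was at 19.7 and 15.0 FPKM in D85 replicates 2 and 3 and at 4.90 in D135 replicate 2, with 0 in the others of those days. LOC101102231, LOC101120200, LOC101105036 and LOC101111401 each had a single non-zero library at D85, at D135 or on both days. With their zeros treated as missing, such a day has no replicate and no spread of its own. The counts that follow include these loci, so those calls carry less weight than the others. With such zeros treated as missing, a choice made after the data were seen, 26 of 37 histone loci were lower at D135 than at D85, against 41.1% of all loci. Between D135 and D105 it gave 24 of 37, against 36.5%, and over any day 26 of 37, against 44.8%. Of the 26 replication-dependent loci tested, 23 then fell and the other 3 did not pass: H2A type 2-C, H2A type 2-B and the joined H2B type 2-E locus.

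**Figure D3:**
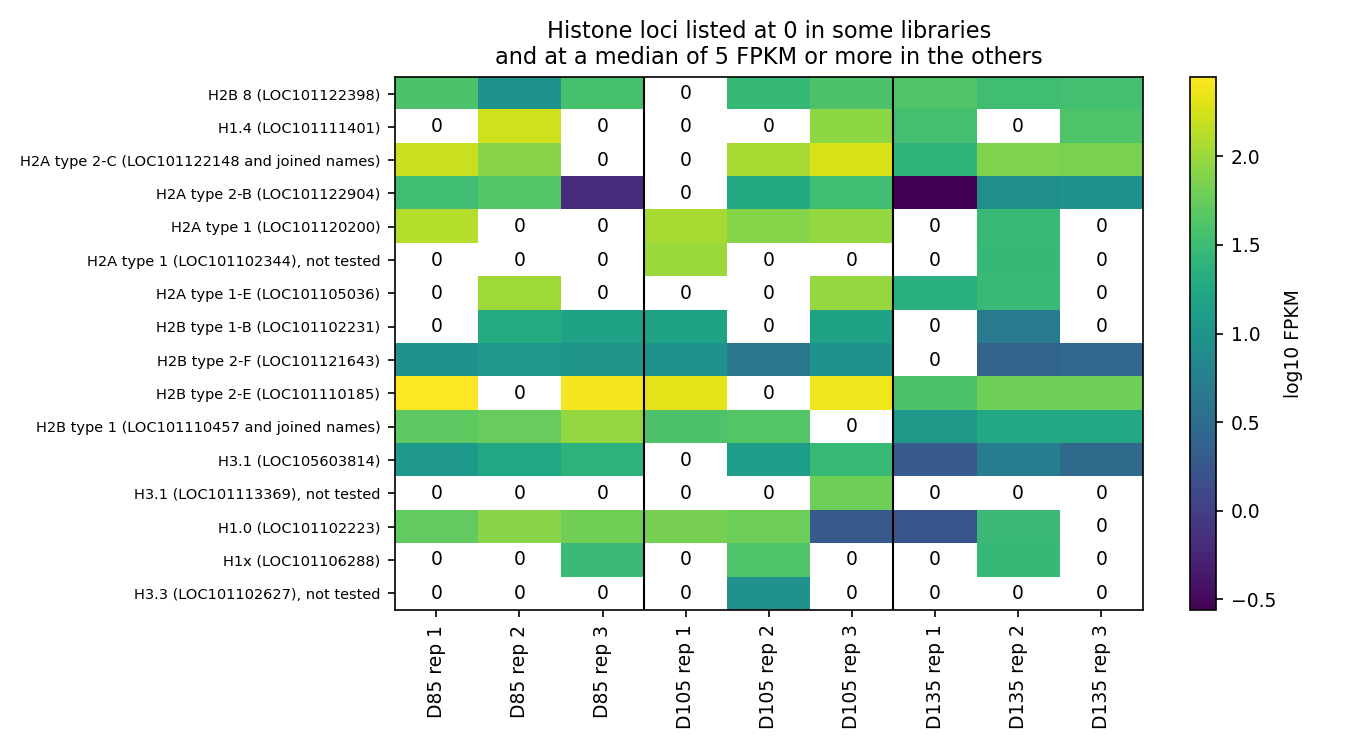
Level of the 16 histone loci with doubtful zeros (rows) in the 9 libraries (columns), as log10 FPKM by colour, with white cells marked 0 where a locus was listed at 0. The zeros do not follow the days: each library has between 3 and 9 of them.

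Of the 9 tested variant loci, 3 fell from D85 to D135 and none rose, where the background was 39.7% of all loci lower. The 3 also fell with median-of-ratios scaling. The largest called difference was that of H2A.X, the variant phosphorylated at DNA breaks (LOC101106791), at 41.0, 46.7 and 36.4 FPKM at D85, at 42.7, 26.0 and 39.8 at D105 and at 6.71, 8.07 and 11.5 at D135. D85 and D105 overlapped, and D135 lay below both. The log2 difference between D135 and D85 was -2.14 (SE 0.23, limma adjusted p = 0.000418). H2A.V, a close relative of H2A.Z (LOC101118100), was at 17.9, 12.6 and 15.1 FPKM at D85, at 11.9, 6.76 and 9.35 at D105 and at 6.80, 5.85 and 6.51 at D135. Its D105 libraries all lay below its D85 libraries, as at 10.7% of all tested loci never at 0. Neither step passed on its own (limma adjusted p = 0.232 for D105 against D85 and 0.0956 for D135 against D105). Between D135 and D85 the log2 difference of H2A.V was -1.12 (SE 0.20, adjusted p = 0.00277). CENPA, the H3 variant that marks the centromere, was low throughout, at 2.25, 1.37 and 1.20 FPKM at D85 and at 0.349, 0.356 and 0.610 at D135. CENPA passed the filter on low values only through D85 and D105, so its call is not independent of that filter. It fell by 0.84 on the log2 scale (SE 0.18, adjusted p = 0.00625).

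H3.3, the H3 variant laid down outside replication, is encoded by H3F3A and H3F3B. H3F3A was at 51.4, 47.3 and 43.4 FPKM at D85, at 45.1, 44.7 and 46.0 at D105 and at 60.0, 36.7 and 40.4 at D135. The days overlapped, and the log2 difference between D135 and D85 was -0.08 (95% interval -0.48 to 0.32, limma adjusted p = 0.727). H3F3B was at 37.9, 35.3 and 33.7 FPKM at D85, at 30.9, 89.3 and 30.8 at D105 and at 27.1, 22.0 and 48.9 at D135, with D105 replicate 2 far above the rest. Its log2 difference was -0.20 (95% interval -1.20 to 0.80, adjusted p = 0.728). A further H3.3 locus, LOC101111106, stood at 9.89 ± 4.15 FPKM at D85 and 9.30 ± 0.430 at D135 (SD, n = 3). With median-of-ratios scaling the estimates of H3F3A and H3F3B turned positive (0.34 and 0.22), and neither passed the test.

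H2A.J (LOC101107687) was at 3.17, 3.56 and 2.72 FPKM at D85 and at 3.65, 4.01 and 2.74 at D135. The days overlapped, with a log2 difference of 0.10 (95% interval -0.34 to 0.54, limma adjusted p = 0.695). H1.0, the linker histone known to accumulate in differentiated cells (LOC101102223), was at 53.5, 82.6 and 62.6 FPKM at D85, at 68.0, 61.5 and 1.89 at D105 and at 1.66, 31.1 and 0 at D135. All D135 libraries were below all D85 libraries, but their spread was wide and the log2 difference of -3.91 did not pass (adjusted p = 0.0635). It passed when only D85 and D135 were fitted, with a replicate block, and without D105 replicate 3 or D135 replicate 2, and it did not pass in the remaining alternatives. H1x (LOC101106288) was at 30.5, 42.0 and 28.2 FPKM in 1 library of each day and at 0 in the other 6, so no change can be read from it.

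**Figure D4:**
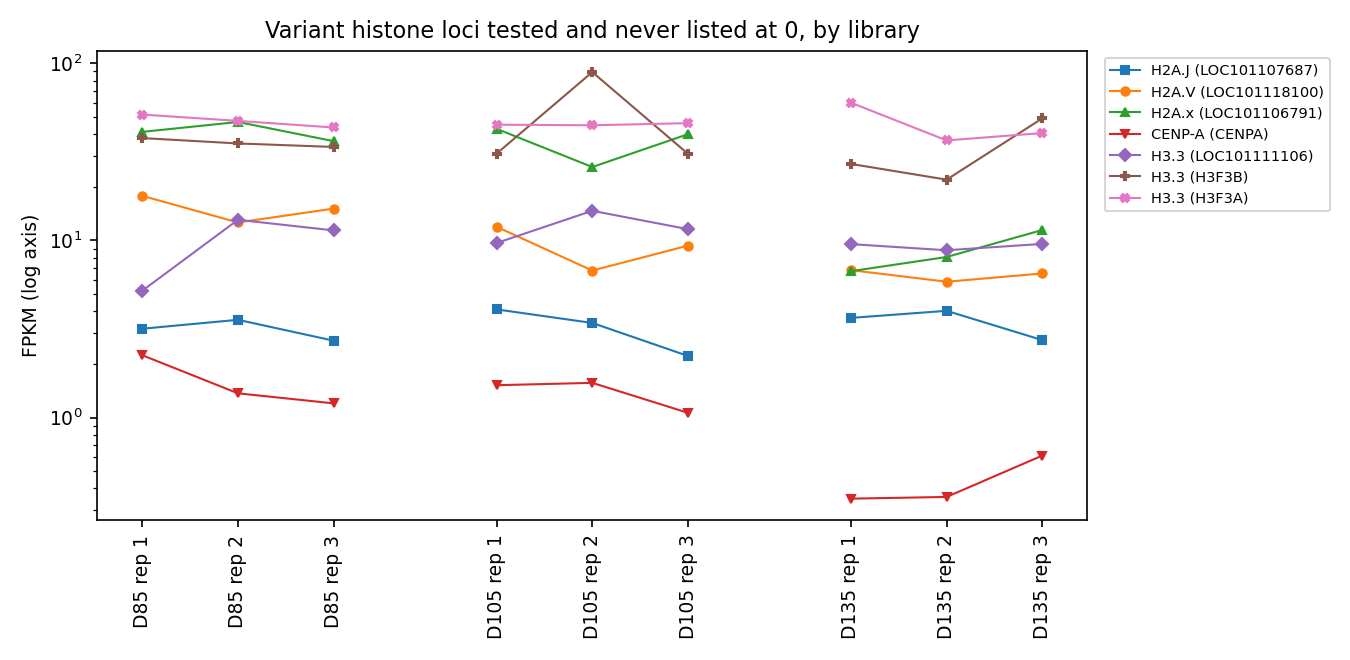
FPKM on a log axis in each of the 9 libraries for the 7 tested variant loci that were never listed at 0, with lines broken between days. H2A.X, H2A.V and CENPA lie lower at D135 than at D85, while H3F3A, H3F3B, the H3.3 locus LOC101111106 and H2A.J overlap between those days.

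H2A.Z, which marks promoters, is encoded by H2AFZ. It was at 29.7, 25.9 and 25.1 FPKM at D85, at 23.7, 18.1 and 21.6 at D105 and at 11.3, 13.3 and 12.4 at D135. The 3 days did not overlap, and the log2 difference between D135 and D85 was -1.06 (SE 0.12, limma adjusted p = 0.000511). The macroH2A variants, named for a large domain beside the histone fold, differed from each other: H2AFY2 fell from 9.05 ± 2.61 FPKM to 1.20 ± 0.549 (log2 difference -2.20, adjusted p = 0.000418). H2AFY stood at 16.1 ± 3.24 FPKM at D85 and 13.4 ± 1.79 at D135 and did not pass (adjusted p = 0.244). Over the list of 12 variant genes by symbol, which shares most loci with the members, 5 of 11 tested fell and none rose, near the background of 39.7% of all loci lower. With median-of-ratios scaling 5 of 11 fell, against 14.0%.

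Ratios within a library do not depend on how libraries are scaled, and they are given here against H3F3A and H2AFZ. Other variants were lower at D135, since H2A.X at D135 was at 21.1% of its D85 mean and CENPA at 27.3%. The H4 locus to H3F3A ratio was 2.0, 1.79 and 2.21 at D85, 1.75, 1.15 and 1.83 at D105 and 0.31, 0.66 and 0.57 at D135. It was above 1 in all 6 libraries of the earlier days and below 1 in all 3 of D135. How mRNA was selected is not stated, and the main replication-dependent transcripts lack a poly(A) tail. A ratio of 1 therefore does not mark equal amounts of mRNA, here or in the H3 ratios below. The summed replication-dependent H3 of the 2 loci never at 0 was 2.64, 2.92 and 1.95 times H3F3A at D85, 2.80, 1.90 and 3.04 times at D105 and 0.33, 0.90 and 0.80 times at D135. H3F3A alone was thus below the sum of these H3 loci before D135 and above it at D135 in all libraries. This crossing is of FPKM values rather than of mRNA amounts, and it depended on the loci chosen. Against H3F3A plus H3F3B the ratio was 0.63 in D105 replicate 2, near the 0.56 of D135 replicate 2. Every other library before D135 stayed above 1. With all 5 replication-dependent H3 loci summed, D135 replicate 2 held 38.3 FPKM against 36.7 for H3F3A. In the other D135 libraries H3F3A was still higher. Set against H2AFZ, which itself fell, the 2 replication-dependent H2A loci never at 0 went from a ratio of 5.86 ± 1.64 at D85 (SD, n = 3) to 2.21 ± 0.41 at D135. Within the variants, H2A.X was 13.1 ± 0.23 times H2A.J at D85 and 2.68 ± 1.31 times at D135.

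Summed over the 15 replication-dependent loci never at 0, the level was 1232, 892 and 1035 FPKM at D85, 736, 693 and 1028 at D105 and 224, 293 and 289 at D135. D135 was thus at 25.5% of the D85 mean. The 8 variant loci never at 0 summed to 159, 160.2 and 145 FPKM at D85, 146, 187 and 142 at D105 and 114, 86.0 and 121 at D135, which was 69.1% of the D85 mean. The ratio of the sums was 6.82 ± 1.12 at D85, 5.33 ± 1.80 at D105 and 2.59 ± 0.74 at D135. D85 and D105 overlapped in this ratio, and all D135 libraries were below all others. By family, the D135 sum over replication-dependent loci never at 0 was 17.1% of D85 for H2A, 23.2% for H4, 23.8% for H3, 24.0% for H1 and 28.6% for H2B. These shares rest on 2 loci each for H2A, H4 and H3, 3 for H1 and 6 for H2B. The H2A sums at D85 were uneven, at 230, 124 and 127 FPKM. The uneven joined H2B type 2-E locus held a mean of 224 of the 607 FPKM of H2B at D85. The order of the families is therefore not read. These sums are descriptions without a test, since the members were chosen with earlier results known.

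**Figure D5:**
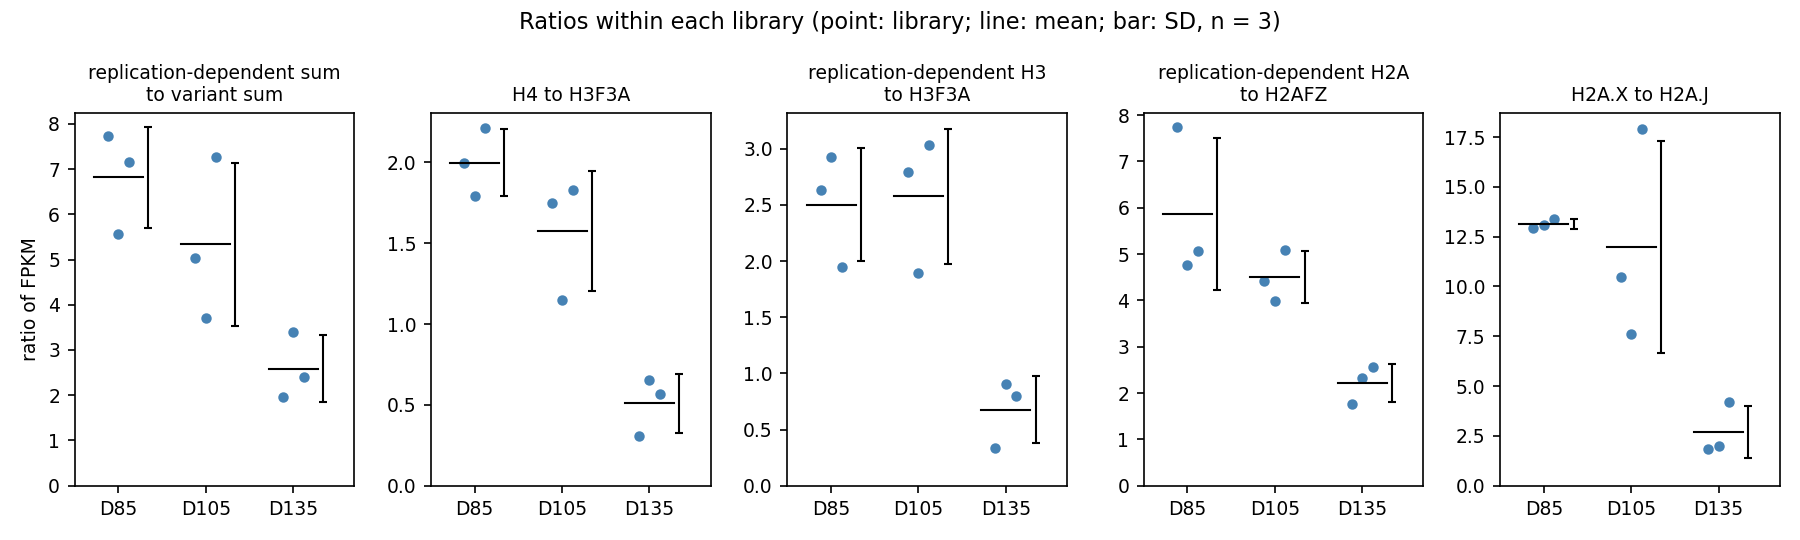
Ratio of FPKM within each library at D85, D105 and D135 for 5 pairs of histones, with points for libraries, a line for the mean and a bar for the SD (n = 3), on linear axes from 0. In each panel the D135 points lie below all points of the earlier days, for example 0.31 to 0.66 against 1.15 to 2.21 for H4 to H3F3A.

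The 23 untested loci were low or were seen in few libraries. The testis and oocyte forms H1t and H1oo, 3 H2A-Bbd loci and H3.3C stayed under 1 FPKM in every library. Exceptions were copies seen in few libraries: H2A type 1 at LOC101102344 was at 98.8 FPKM in D105 replicate 1 and 28.4 in D135 replicate 2 and at 0 elsewhere. H3.1 at LOC101113369 was at 60.3 FPKM in D105 replicate 3 alone, and H3.3 at LOC101102627 at 9.10 FPKM in D105 replicate 2 alone. H1.5 (LOC101123158) reached 1.87 FPKM and H4 type VIII (LOC101102019) 1.57 FPKM at most. Among the loci kept apart, MYSM1 stood at 6.75 ± 1.76 FPKM at D85 and 6.0 ± 0.949 at D135 (SD, n = 3) and did not pass (limma adjusted p = 0.548). The H2B 8-like locus LOC101122398 was at 40.1, 9.53 and 37.2 FPKM at D85 and at 42.6, 33.5 and 35.0 at D135, and its days overlapped (log2 difference 0.57, adjusted p = 0.743).

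By the RefSeq gene order of assembly ARS-UI_Ramb_v3.0, in which 52 of the 60 loci were found, 22 loci lay in a single run of neighbours under 1 Mb apart, and further runs held 6 and 3. The H4 locus, the H3.1 locus LOC106990414 and the H1.1, H1.3 and H1.4 loci lie in the largest run, while H1.0 and H1x lie in none. H2B type 2-F and the joined H3 locus lie in the run of 6.

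Genes that make histone mRNA were examined next. SLBP, the protein that binds the histone stem-loop, was at 17.0, 16.9 and 15.8 FPKM at D85, at 17.6, 13.4 and 16.2 at D105 and at 4.80, 8.06 and 8.71 at D135. D135 lay below both earlier days, and the log2 difference from D85 was -1.14 (SE 0.20, limma adjusted p = 0.00265). NPAT, the coactivator of histone gene transcription, stood at 6.71 ± 0.201 FPKM at D85 and 4.15 ± 0.119 at D135 (log2 difference -0.58, adjusted p = 0.000785). CASP8AP2, a partner of NPAT at histone genes, had a log2 difference of -0.56 (adjusted p = 0.00620). With median-of-ratios scaling neither passed (adjusted p = 0.062 for NPAT and 0.272 for CASP8AP2). CSTF2, a cleavage factor, XRN2, an exonuclease that ends transcription, and SRRT, which acts in RNA processing at the cap, had log2 differences of -0.75, -0.67 and -0.67 (adjusted p = 0.000520, 0.000929 and 0.00367), and SRRT did not pass with median-of-ratios scaling (adjusted p = 0.152). LSM10 and LSM11, subunits of the U7 particle that cuts histone transcripts, had adjusted p of 0.579 and 0.626. Of 20 tested genes of this list 11 fell and none rose, against 39.7% of all loci lower. With median-of-ratios scaling 3 of 20 fell, near the background of 14.0%.

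The histone chaperones carry histones to chromatin. Of 31 tested, 27 were lower at D135 than at D85 and 1 was higher, where 39.7% of all loci were lower and 6.90% higher. With median-of-ratios scaling 13 of 31 were lower, against 14.0% of all loci. CHAF1A, the large subunit of the factor that deposits H3 and H4 behind the replication fork, fell from 5.07 ± 0.549 to 1.45 ± 0.194 FPKM (SD, n = 3; log2 difference -1.31, limma adjusted p = 0.000291). HJURP, the chaperone of CENPA, fell by 1.303 on the log2 scale (adjusted p = 0.00108), and DNAJC9, a co-chaperone of H3 and H4, by 1.19 (adjusted p = 0.00402). The 1 that rose is a locus joining VPS72, a chaperone of H2A.Z, with TMOD4, a muscle tropomodulin. It went from 10.1 ± 1.26 to 67.1 ± 13.5 FPKM (log2 difference 2.60, adjusted p = 0.000126), and the reads of these genes cannot be divided.

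Genes of S phase and mitosis were lower at D135 in 34 of 36 tested cases, against 39.7% of all loci, and in 26 with median-of-ratios scaling, against 14.0%, with a median log2 difference of -1.23. TOP2A, the topoisomerase of dividing cells, was at 26.1, 30.1 and 24.5 FPKM at D85 and at 4.38, 5.06 and 7.18 at D135, a log2 difference of -2.11 (limma adjusted p = 0.000156). RRM2 and TYMS, which supply nucleotides for DNA synthesis, had log2 differences of -1.87 and -1.78, and MKI67, a marker of cycling cells, of -1.85 (adjusted p = 0.000163, 0.000126 and 0.000925). MCM7 of the replicative helicase and PCNA, the sliding clamp, fell by 1.03 and 1.45 (adjusted p = 0.000126 and 0.00185). Of 12 genes listed as cell cycle inhibitors, exit factors or D-type cyclins, 9 fell and none rose, against 39.7% of all loci lower. Among them were the inhibitors CDKN1A (log2 difference -2.07) and CDKN1C (-1.16), the D-type cyclin CCND2 (-1.67) and RBL1, a relative of the retinoblastoma protein (-1.01). With median-of-ratios scaling 5 of these 12 fell, against 14.0% of all loci.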

How the data were processed

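RNA from 9 libraries of fetal sheep longissimus dorsi was measured, 3 at each of D85, D105 and D135. The authors deposited FPKM values per locus with gene names and product descriptions, per the file headers. Cutadapt, Bowtie2 and TopHat2 are named in the submitters' processing notes; how loci were assembled and counted, and on which genome build, is not given in the sources used here. No counts were used, so depth is unknown and the number of libraries limits the precision.

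From the deposited FPKM, log2(FPKM + 1) was computed for the 13086 loci with at least 1 FPKM in at least 3 libraries. All 9 libraries entered one limma 3.58.1 fit (R 4.3.3) with a mean-variance trend, without a block. Tests were two-sided, with Benjamini-Hochberg adjustment over all tested loci and a threshold of 0.05. Summaries and plots used Python 3.11.15 with pandas 2.3.3, numpy 2.4.6 and matplotlib 3.10.9, and the fit was tested on simulated data. Histone loci were named when they were called, when they were among the 10 highest on average, when they were tested variants, or when some libraries were listed at 0. For each gene list, up to 4 called genes with the largest change were named, besides genes fixed by name; other loci named were chosen after their values were seen. The members and lists were chosen with earlier results of these data known.

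Alternatives were another pseudocount (0.1), no filter, a filter on 6 libraries, median-of-ratios and quantile scaling, totals without the top 50 loci, no trend, only the 2 days compared, a replicate block, and each library left out. After the data were seen, zeros at loci whose other libraries had a median of 5 FPKM or more were treated as missing, and class sums were limited to loci without a 0. RefSeq names and gene order came from assembly ARS-UI_Ramb_v3.0.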

Additional observations from a re-analysis of the deposited data

How the results depend on the processing

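Counts of lower histone loci ranged, over the planned settings and the single libraries left out, from 13 to 18 between D135 and D105 and from 17 to 22 between D135 and D85, and none was called between D105 and D85. Of the 16 and 19 called loci, 13 and 17 passed under every alternative, and 14 and 18 with each library left out. With zeros as missing the counts were 24 and 26. With each library left out in turn, 16 to 18 loci were called between D135 and D105, 18 to 21 between D135 and D85, 16 to 21 over any day and 0 between D105 and D85. Same-numbered libraries did not pair (correlations -0.066 to 0.060), and with a replicate block 0, 17 and 20 loci were called in the 3 comparisons and 17 over any day.

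Summed FPKM of all replication-dependent loci was 1585 at D85, 1360.3 at D105 and 472 at D135, and 1053, 819 and 269 over loci without a 0. Median-of-ratios scaling gave 576 at D135. For variants, 231 at D85 and 128 at D135 became 208 and 155 with that scaling, and 155 and 107 over loci without a 0. Leaving out single libraries gave 1421 to 1676, 1102 to 1555 and 430.1 to 526 for replication-dependent loci and 226 to 240.4, 179 to 257 and 119 to 133 for variants on the 3 days. Of the 18 loci not called between D135 and D85, MYSM1 was not followed; of the other 17, 8 passed under some alternative, 7 of them with zeros as missing, and 10 changed sign under some alternative. The cause was not tested.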

Other observations

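Several loci without a histone name lie among the histone genes in the RefSeq order and were chosen after their values were seen. LOC101113893, described in the table as an uncharacterized protein and named H1-2 in RefSeq, was at 129, 143 and 144 FPKM at D85, at 123, 114 and 119 at D105 and at 43.6, 38.5 and 41.5 at D135. It was never at 0, and its log2 difference between D135 and D85 was -1.72 (limma adjusted p = 7.61e-05). HINFP, the H4 transcription factor removed by the rule, fell from 6.36 ± 0.553 to 3.13 ± 0.116 FPKM (SD, n = 3; log2 difference -0.83, adjusted p = 0.000542).

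In the runs of 22 and 6 histone loci, 31 further loci were not taken by the rule and 20 of them were tested. Leaving aside LOC101118484, which is given below, 13 tested loci had neither a gene symbol nor a histone product. Their median log2 difference between D135 and D85 was -1.64 (range -4.27 to 6.28, 10 below 0). The 7 of them without a 0 in any library had a median of -1.68 (range -2.65 to 0.67). The 4 with a gene symbol, HFE, ABT1, HMGN4 and ZNF184, had a median of -0.30. A neighbour without a product description shares the name LOC101112856 with an untested member, the H2A type 1-D locus. This neighbour was at 151, 179 and 148 FPKM at D85 and at 15.1, 31.5 and 30.0 at D135. Its log2 difference was -2.65 (limma adjusted p = 0.000337), while the member of that name was at most at 0.299 FPKM. LOC101118484, described as a hemochromatosis protein, was at 94.7, 144 and 106 FPKM at D85 and at 25.0, 28.9 and 30.2 at D135. HFE itself, the gene of that protein, was at 1.48, 0.737 and 1.08 FPKM and at 0.513, 1.08 and 1.51 on the same days. LOC101105290, an uncharacterized locus, was listed at 0 in all D85 libraries and at 96.8, 78.3 and 59.5 FPKM at D135, with 117 in D105 replicate 2 and 0 in the other D105 libraries. These zeros can be failed estimates, so no rise is read from them.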
